A study of Rattus norvegicus with 17 samples.

Results

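The genes described here carry pyruvate into the mitochondrion, turn it into acetyl-CoA and run the tricarboxylic acid cycle. They were taken by gene name from a list of 36 genes, a pathway list drawn up when earlier results of these data were known. Of these, 35 had a row in the count table and 34 passed the filter on low counts, out of 32495 named entries and 11856 genes tested. Ogdhl, a relative of the 2-oxoglutarate dehydrogenase subunit, had counts of 0 to 20 and was not tested, and Ogdh is not analysed here.

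RNA came from the gastrocnemius, the large calf muscle, of rats. There were 6 samples from rats with a tumor that were given chemotherapy (libraries 11 and 13 to 17), 5 from rats with a tumor (libraries 6 to 10) and 5 from healthy rats (libraries 1 to 5). All rats were on the control diet. No source used here names the tumor, the chemotherapy agent, the strain, the sex or the age, or says whether each library came from a separate animal, so p-values measure the spread between these samples.

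Pyruvate made by glycolysis crosses the inner mitochondrial membrane through a carrier and is oxidised by the pyruvate dehydrogenase complex, which kinases switch off and phosphatases switch on. The cycle then oxidises acetyl-CoA and passes its electrons to the respiratory chain. In skeletal muscle this entry step sets how far carbohydrate is burned in place of fat, and side reactions refill the cycle or move reducing equivalents between cytosol and mitochondrion.

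Totals of the deposited libraries ran from 3023899 to 15777909 reads. The genes of the list held 0.748% to 0.870% of the counts in chemotherapy samples, 0.663% to 0.903% in tumor samples and 0.601% to 0.808% in healthy samples, and the ranges overlapped. Of the 13 fast-fiber markers listed, 10 were in the table, and all 10 were counted in every sample, as were all 11 slow-fiber markers. Of the 3 heart markers, Nppa and Nppb were at 0 throughout. The third, the heart myosin Myh6, was counted in every sample, at 62.2 to 100.3 CPM in chemotherapy samples, 76.2 to 156 CPM in tumor samples and 32.2 to 124 CPM in healthy samples, and was not called in any comparison. The library names end in MB or VM, 2 codes that the labels leave unexplained. The code MB was on chemotherapy library 11 and on healthy libraries 1 to 4, and VM was on all other samples. Healthy libraries 1, 3 and 4 stood apart from healthy libraries 2 and 5 in several genes below, so the results were also computed without them.

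In chemotherapy samples 4 genes of the list were higher than in healthy samples and 3 were lower. Higher were Pdha1, the catalytic alpha subunit of pyruvate dehydrogenase, Idh3b, a subunit of the NAD-dependent isocitrate dehydrogenase, and Suclg2 and Sucla2, the alternative beta subunits of succinyl-CoA ligase. Lower were Pdk2, a kinase that switches pyruvate dehydrogenase off, Aco1, the cytosolic aconitase, and Mdh2, the mitochondrial malate dehydrogenase. A gene was called when its p from edgeR's quasi-likelihood test, adjusted by Benjamini-Hochberg over all 11856 genes, was below 0.05. The 4 higher genes were 11.8% of the 34 tested, where 7.3% of all genes were called higher. The 3 lower genes were 8.82%, where 6.41% of all genes were called lower. Both shares lie near those of all genes. The median log2 fold change over the list was 0.08, with 18 genes positive and 16 negative, against -0.02 over all genes tested. With libraries scaled by total counts alone, the medians were 0.21 over the list and 0.12 over all genes, and more genes of the list were positive.

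None of the 34 genes was called in tumor against healthy samples or in chemotherapy against tumor samples, where 0% of all genes were called by the same test. DESeq2's Wald test also called 0 of the 34 in both comparisons. Of all 11856 genes it called 17 higher and 23 lower in tumor against healthy samples, and 2 higher and 7 lower in chemotherapy against tumor samples. At an unadjusted p below 0.05, 3 genes of the list passed in tumor against healthy samples (8.82%, against 18% of all genes). In chemotherapy against healthy samples 11 passed (32.4%, against 36.4% of all genes), and in chemotherapy against tumor samples 1 passed (2.94%, against 5.78% of all genes). Chemotherapy and healthy groups did not overlap in 1 gene of the list, Mdh2 (2.94%, against 4% of all genes). Tumor and healthy groups overlapped in all 34 (0.995% of all genes did not overlap), as did chemotherapy and tumor groups (0.481%).

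**Figure D1:**
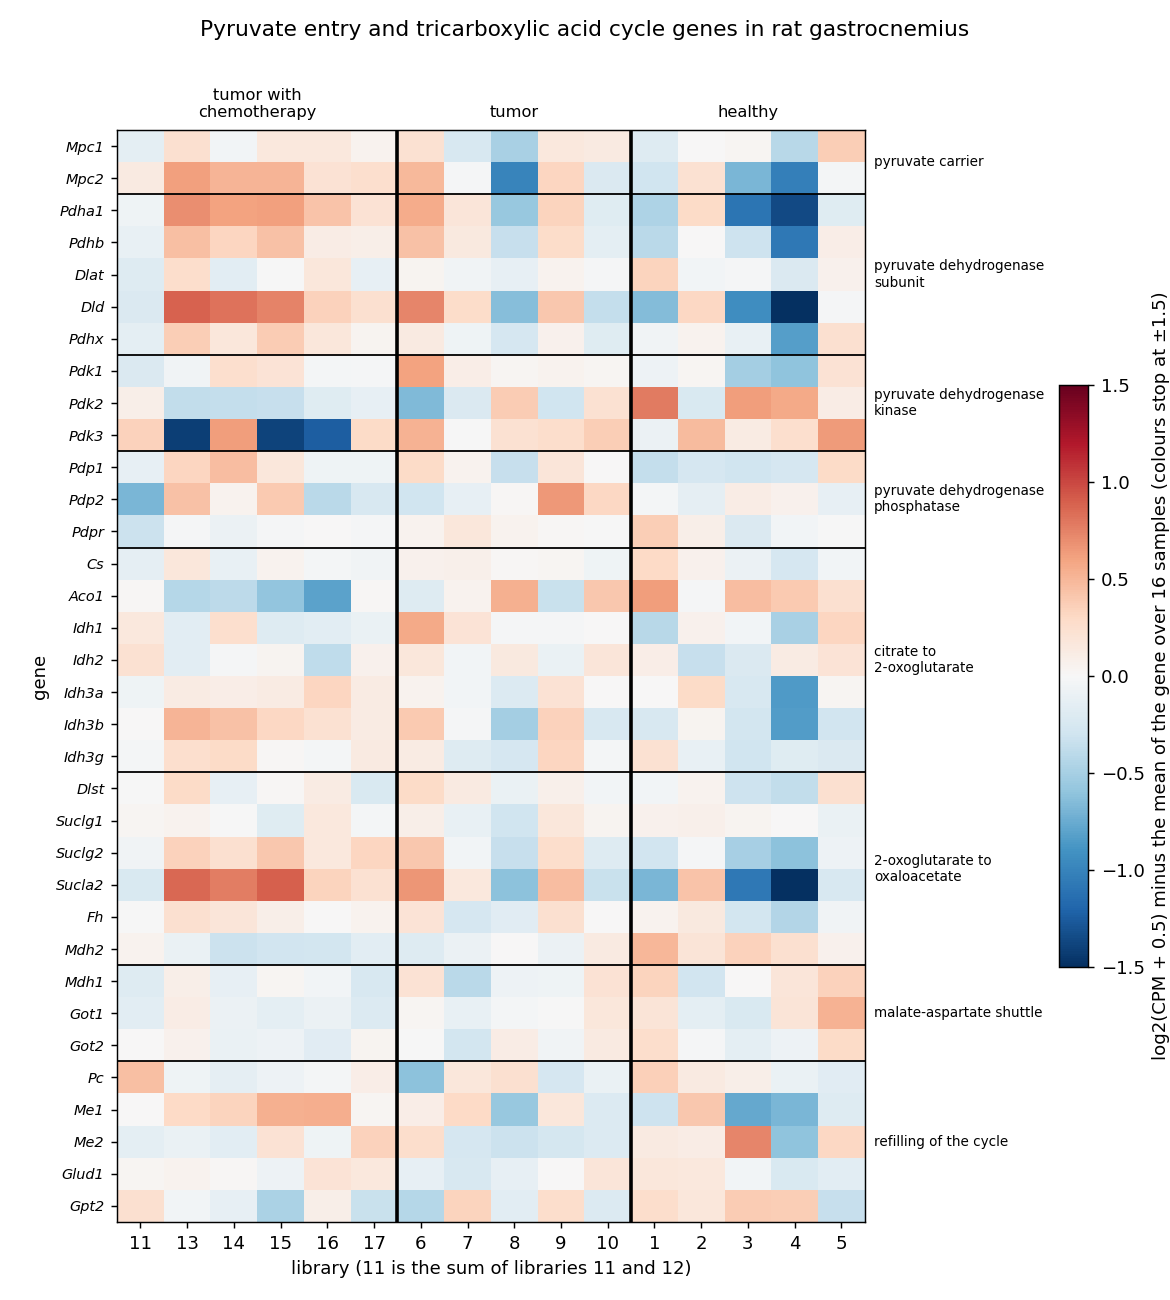
Level of each gene in every sample, as log2 CPM minus the mean of that gene over the 16 samples, with genes in rows by role and samples in columns, chemotherapy first, then tumor, then healthy. Pdha1, Dld and Sucla2 were lowest in healthy library 4 and high in chemotherapy library 13, while Dlat, Cs, Suclg1 and Glud1 stayed near white throughout.

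The pyruvate carrier is built from Mpc1 and Mpc2. Mpc2 measured 86.0, 102 and 120.4 CPM as the lowest, median and highest of the chemotherapy samples, 109, 77.1, 39.2, 97.8 and 67.1 CPM in tumor libraries 6 to 10, and 63.3, 92.0, 48.5, 38.1 and 76.5 CPM in healthy libraries 1 to 5. CPM are counts scaled to the same library size, with a TMM factor for each library. Chemotherapy samples overlapped the healthy range only through healthy library 2, and tumor library 8 lay among the lowest healthy samples. The log2 fold change was 0.69 ± 0.24 (SE) in chemotherapy against healthy samples, with an adjusted p of 0.0537 that missed the threshold. Its partner Mpc1 had 0.09 ± 0.15 in the same comparison.

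The list holds 5 subunits of the pyruvate dehydrogenase complex. Pdha1 holds the catalytic site and the phosphorylation sites that the kinases act on. It measured 344, 514 and 581 CPM as the lowest, median and highest chemotherapy sample, 530.1, 407, 243, 453 and 317 CPM in tumor libraries 6 to 10, and 260.1, 439, 169, 140.1 and 317 CPM in healthy libraries 1 to 5. Healthy library 2 reached into the chemotherapy range and healthy libraries 3 and 4 lay lowest of all 16 samples. The group means were 487 ± 91.2 CPM in chemotherapy samples (SD, n = 6), 390.1 ± 113 in tumor samples and 265 ± 120.1 in healthy samples (n = 5 each). In chemotherapy against healthy samples this was 1.84-fold, a log2 fold change of 0.88 ± 0.26 with an adjusted p of 0.0365.

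Dld, the dihydrolipoyl dehydrogenase that regenerates lipoate in this and other complexes, had the same order of samples in the healthy group. It measured 135, 231 and 292 CPM as the lowest, median and highest chemotherapy sample, 262, 190.1, 101, 209 and 122 CPM in tumor libraries 6 to 10, and 101, 196, 82.6, 41.1 and 155 CPM in healthy libraries 1 to 5. Healthy library 4 was lowest, and healthy libraries 2 and 5 lay within the chemotherapy range. Its log2 fold change of 0.97 ± 0.33 in chemotherapy against healthy samples was larger than that of Pdha1, but the adjusted p was 0.0526. Pdhb, the beta subunit that pairs with Pdha1, had 0.52 ± 0.19 with an adjusted p of 0.0635. Pdhx, which tethers Dld to the core, had 0.28 ± 0.16 (adjusted p 0.218), and Dlat, the acetyl-transferring core itself, had -0.03 ± 0.12 (adjusted p 0.870). Dlat stayed between 158 and 233 CPM in all 16 samples. The subunits of 1 complex thus differed in how far they varied between samples, and 1 of the 5 was called.

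Of the kinases, Pdk2 was the one called. It measured 179.9, 195 and 248 CPM as the lowest, median and highest chemotherapy sample, 147, 201, 303, 189.8 and 274 CPM in tumor libraries 6 to 10, and 402, 199, 360.1, 346 and 253 CPM in healthy libraries 1 to 5. Healthy libraries 1, 3 and 4 lay above every other sample, and healthy library 2 lay inside the chemotherapy range. The level was 0.648-fold in chemotherapy against healthy samples, a log2 fold change of -0.63 ± 0.19 (adjusted p 0.0405). In tumor against healthy samples it was -0.49 ± 0.20 (adjusted p 0.247).

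Pdk1, a kinase induced by hypoxia in many tissues, had log2 fold changes of 0.20 ± 0.17 in chemotherapy against healthy samples and 0.35 ± 0.17 in tumor against healthy samples, with adjusted p of 0.403 and 0.287. Pdk3, a minor kinase in muscle, was near the detection limit. It had counts of 1, 1 and 2 in chemotherapy libraries 13, 15 and 16, against 8 to 45 in every other sample, and was not called. Pdk4, the kinase that rises in fasting muscle, is no member of the list but belongs beside these. It averaged 166 ± 112 CPM in chemotherapy samples, 90.8 ± 44.1 in tumor samples and 109.5 ± 34.5 in healthy samples, and was not called in any comparison. The phosphatase genes Pdp1 and Pdp2 and the phosphatase regulator Pdpr had log2 fold changes from -0.13 to 0.29 in chemotherapy against healthy samples, none called.

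**Figure D2:**
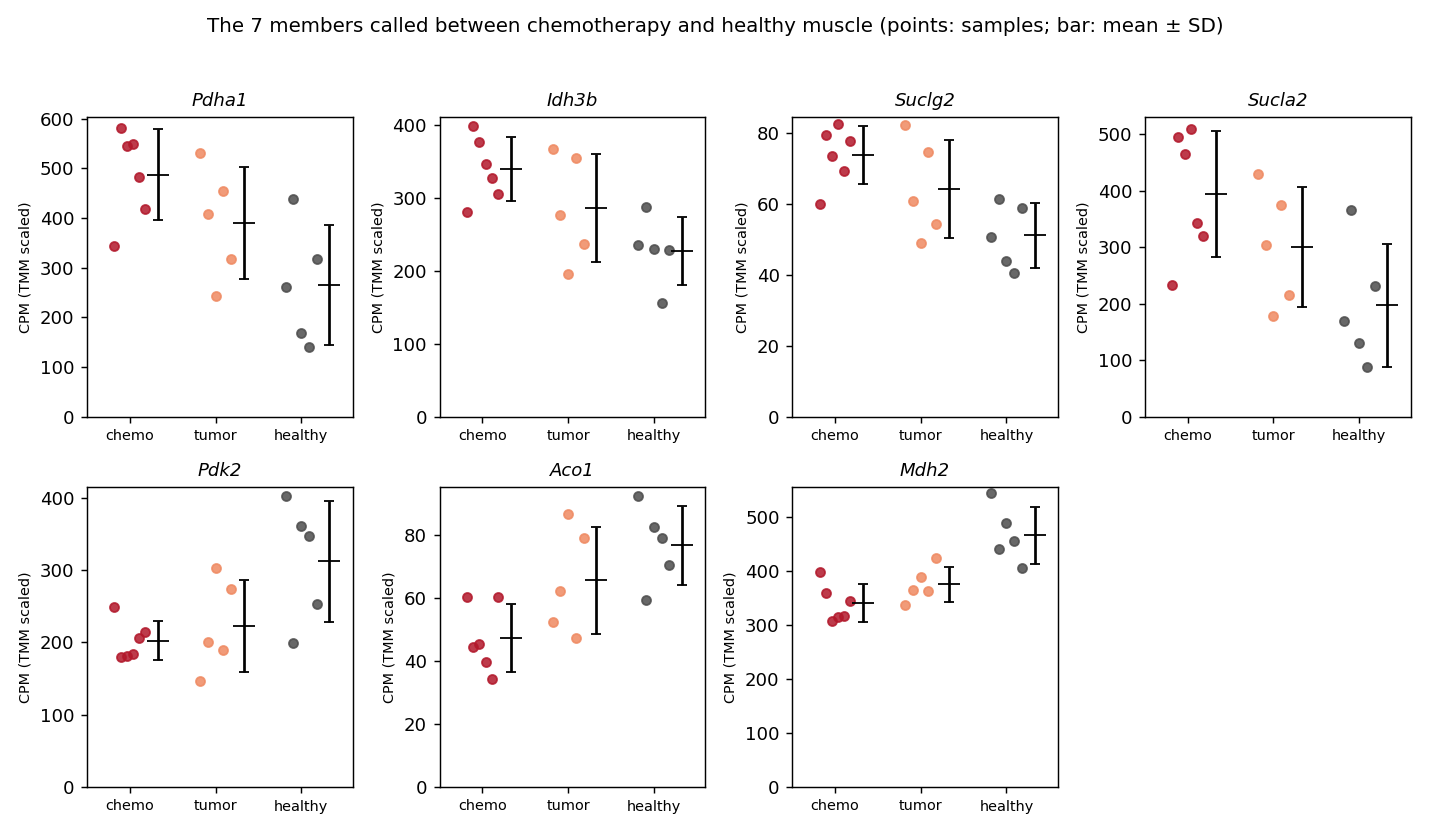
CPM of the 7 genes called in chemotherapy against healthy samples, 1 panel a gene, with chemotherapy samples left, tumor samples in the middle and healthy samples right, a point for each sample and a bar at the mean with its SD. Healthy library 2 reached the chemotherapy range in 6 of the 7 panels, and Mdh2 was the gene in which those groups did not overlap.

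From citrate to 2-oxoglutarate, 1 gene was called higher, 1 lower and 5 in neither direction. Idh3b is a regulatory subunit of the enzyme that turns isocitrate into 2-oxoglutarate with NAD. It measured 281, 337 and 399 CPM as the lowest, median and highest chemotherapy sample, 368, 277, 196, 355 and 237 CPM in tumor libraries 6 to 10, and 236, 287, 229.8, 156 and 229 CPM in healthy libraries 1 to 5. Only the highest healthy sample, library 2, and the lowest chemotherapy sample, library 11, crossed. The level was 1.49-fold in chemotherapy against healthy samples, a log2 fold change of 0.58 ± 0.18 (adjusted p 0.0387). Its partner subunits Idh3a and Idh3g had 0.23 ± 0.16 and 0.22 ± 0.13, with adjusted p of 0.288 and 0.241.

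Aco1 interconverts citrate and isocitrate in the cytosol and, without its iron-sulfur cluster, binds RNA as an iron regulatory protein. It measured 34.2, 44.9 and 60.5 CPM as the lowest, median and highest chemotherapy sample, 52.4, 62.2, 86.7, 47.3 and 79.2 CPM in tumor libraries 6 to 10, and 92.4, 59.3, 82.7, 78.9 and 70.5 CPM in healthy libraries 1 to 5. Healthy library 2 again lay inside the chemotherapy range. The level was 0.619-fold in chemotherapy against healthy samples, a log2 fold change of -0.69 ± 0.18 (adjusted p 0.0301). Against tumor samples it was -0.46 ± 0.18, the smallest p of the list in that comparison, with an adjusted p of 0.778.

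Citrate synthase, encoded by Cs, condenses acetyl-CoA with oxaloacetate and is widely used as a marker of mitochondrial content. Its level lay between 347 and 509 CPM in all 16 samples, and its log2 fold changes were -0.03 ± 0.12 in chemotherapy against healthy samples, 0.02 ± 0.12 in tumor against healthy samples and -0.04 ± 0.12 in chemotherapy against tumor samples. The NADP-dependent enzymes Idh1, in the cytosol, and Idh2, in mitochondria, were not called in any comparison, with log2 fold changes from -0.18 to 0.26.

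From 2-oxoglutarate to oxaloacetate, 2 genes were called higher and 1 lower, of 6 tested. Sucla2, the beta subunit of the ADP-forming succinyl-CoA ligase, had the largest fold change of the list. It measured 233, 405 and 510 CPM as the lowest, median and highest chemotherapy sample, 431, 304, 178, 375 and 216 CPM in tumor libraries 6 to 10, and 169.6, 366, 129.8, 88.6 and 231 CPM in healthy libraries 1 to 5. Healthy library 2 was higher than 3 of the 6 chemotherapy samples. The level was 2-fold in chemotherapy against healthy samples, a log2 fold change of 1 ± 0.32 (adjusted p 0.0443).

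Suclg2, the beta subunit of the GDP-forming enzyme, measured 59.9, 75.9 and 82.6 CPM as the lowest, median and highest chemotherapy sample, 82.5, 60.8, 49.1, 74.6 and 54.5 CPM in tumor libraries 6 to 10, and 50.8, 61.5, 44.1, 40.6 and 58.9 CPM in healthy libraries 1 to 5. Healthy library 2 lay just above chemotherapy library 11, and the other healthy samples lay below all chemotherapy samples. The level was 1.44-fold in chemotherapy against healthy samples, a log2 fold change of 0.53 ± 0.15 (adjusted p 0.0355). Suclg1, the alpha subunit that both beta subunits need, stayed between 186 and 257 CPM in all 16 samples and had -0.01 ± 0.11 (adjusted p 0.954).

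Mdh2 closes the cycle by oxidising malate to oxaloacetate. It measured 308, 331 and 399 CPM as the lowest, median and highest chemotherapy sample, 338, 364, 389, 363 and 424 CPM in tumor libraries 6 to 10, and 544, 439.9, 489, 455 and 405 CPM in healthy libraries 1 to 5. Every chemotherapy sample lay below every healthy sample, although healthy library 5 and chemotherapy library 11 were close. The level was 0.731-fold in chemotherapy against healthy samples, a log2 fold change of -0.45 ± 0.12 (adjusted p 0.0290). In tumor against healthy samples it was -0.31 ± 0.12, the smallest p of the list there, with an adjusted p of 0.243. Fh, the fumarase, and Dlst, the core of the 2-oxoglutarate dehydrogenase complex, had 0.19 ± 0.13 and 0.08 ± 0.14 in chemotherapy against healthy samples and were not called.

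The malate-aspartate shuttle moves reducing equivalents from cytosolic NADH into the mitochondrion. Its enzymes Mdh1, Got1 and Got2 had negative log2 fold changes in all 3 comparisons, from -0.23 to -0.03, except that Got2 turned positive against healthy samples when libraries were scaled by total counts alone. None of the 3 was called. Of the genes that refill or drain the cycle, Me1, the cytosolic malic enzyme, came closest to a call. It measured 155, 192 and 225 CPM as the lowest, median and highest chemotherapy sample, 165, 189.8, 103, 174 and 133 CPM in tumor libraries 6 to 10, and 125, 203, 90.0, 95.7 and 134 CPM in healthy libraries 1 to 5. Only healthy library 2 lay within the chemotherapy range, and the log2 fold change was 0.56 ± 0.20 with an adjusted p of 0.0599. Pyruvate carboxylase (Pc), mitochondrial malic enzyme (Me2), glutamate dehydrogenase (Glud1) and mitochondrial alanine aminotransferase (Gpt2) had -0.01, -0.19, 0.08 and -0.27 in the same comparison.

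In tumor against healthy samples the 6 genes with the smallest p were Mdh2 and Pdk2, given above, with Pdha1, Suclg2, Pdk1 and Pdhb. Pdha1 had a log2 fold change of 0.56 ± 0.27, Suclg2 0.33 ± 0.16 and Pdhb 0.39 ± 0.20, with adjusted p of 0.276, 0.278 and 0.297. The median over the list was 0.07, with 20 genes positive and 14 negative, against 0.01 over all genes. Chemotherapy and tumor samples were each set against the same healthy samples, so these 2 comparisons share the healthy libraries and their values are given side by side only.

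In chemotherapy against tumor samples Aco1 was followed in p by Mpc2, Me1, Idh3b, Pdhx and Suclg2. Mpc2 had a log2 fold change of 0.39 ± 0.23 and Me1 had 0.32 ± 0.20, both with an adjusted p of 0.778. Idh3b had 0.25 ± 0.17, Pdhx 0.23 ± 0.16 and Suclg2 0.20 ± 0.15, each with an adjusted p of 0.793. The median over the list was 0.05, with 19 genes positive and 15 negative, against 0.00 over all genes.

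**Figure D3:**
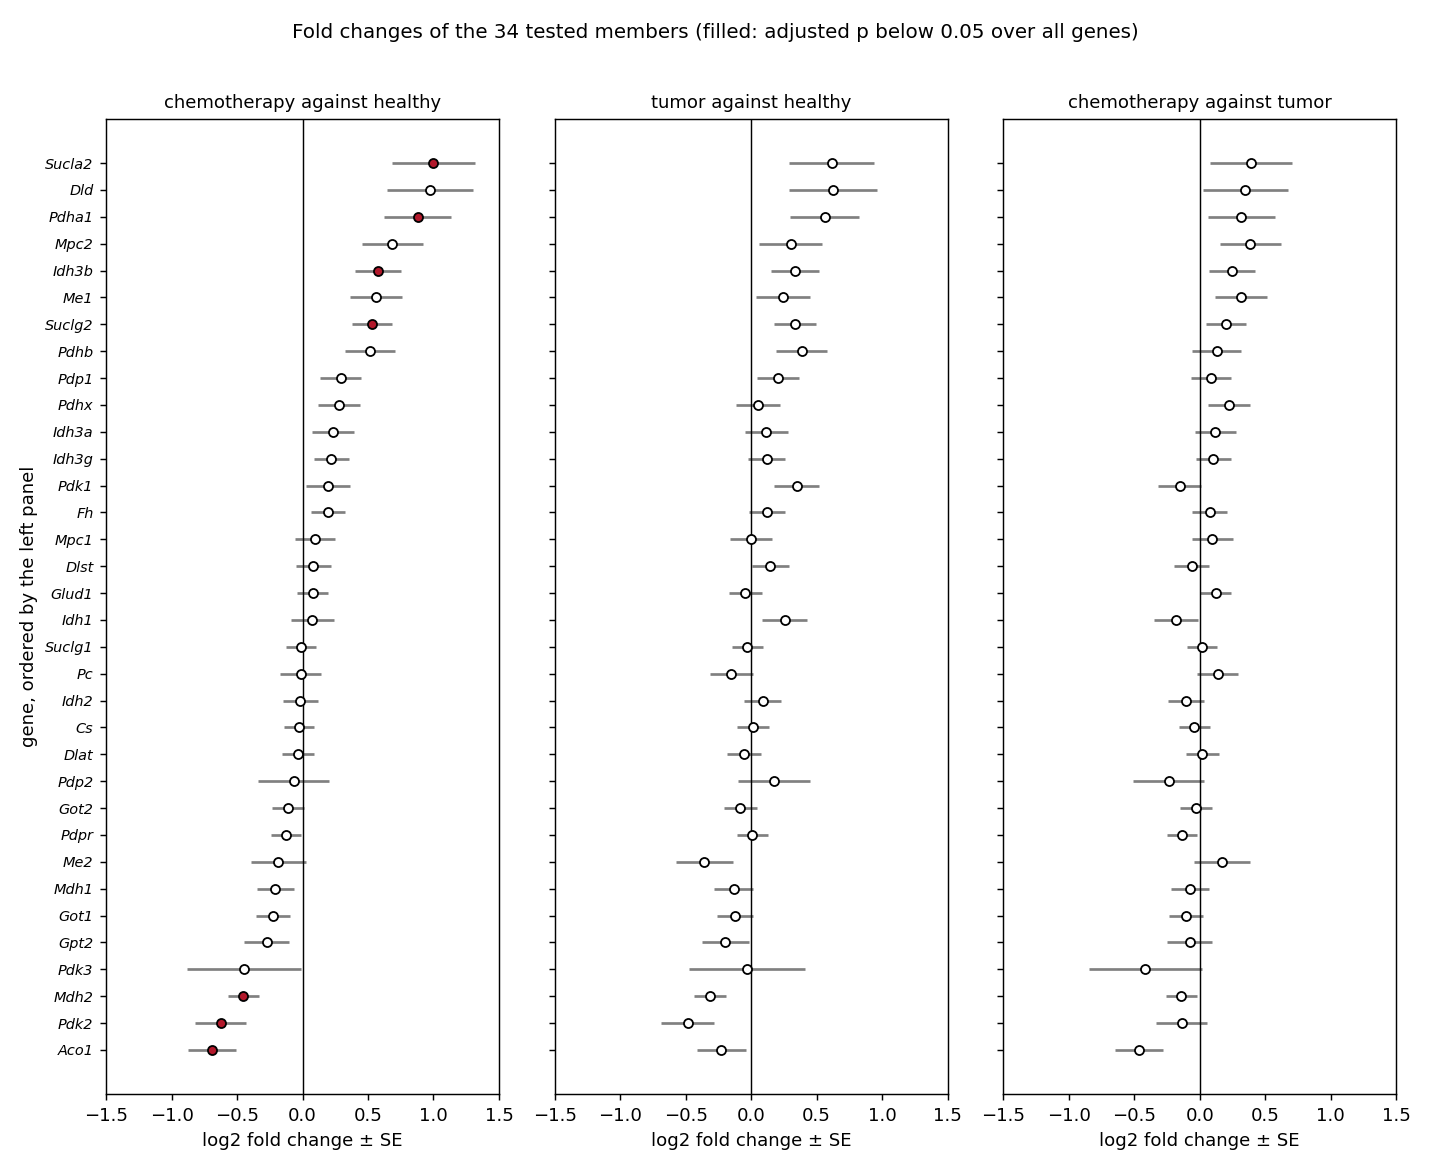
Log2 fold change of the 34 genes tested, with its SE as a bar, in chemotherapy against healthy, tumor against healthy and chemotherapy against tumor samples, 1 panel each. Genes are ordered in all panels by their value in chemotherapy against healthy samples. Called genes stand out in the first panel, where values ran from -0.69 for Aco1 to 1 for Sucla2, and no gene was called in the other panels.

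How far a gene varied over the 16 samples differed widely within the pathway. The highest sample was 9.34 times the lowest for Pdk3, which had the low counts given above, 7.11 times for Dld, 5.76 times for Sucla2, 4.15 times for Pdha1 and 3.16 times for Mpc2. It was 1.47 times for Cs and for Dlat, 1.38 times for Suclg1 and 1.37 times for Glud1. The median was 2.06 over the 34 genes and 2.69 over all genes tested. Among the 5 healthy samples alone the highest was 4.78 times the lowest for Dld, 4.13 times for Sucla2 and 3.13 times for Pdha1, against 1.87 times for Pdk3 and 1.13 times for Suclg1.

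The 4 genes called higher shared most of the extreme libraries of each group, though not the full order. Library 11 was the lowest chemotherapy sample, library 6 the highest and library 8 the lowest tumor sample, and library 2 the highest and library 4 the lowest healthy sample for all 4. Libraries 4, 8 and 11 had the largest totals of their groups over named genes, 15719080, 10857477 and 19965891, the last summed over 2 libraries. Healthy library 2 and tumor library 6 had the smallest of theirs, 3894210 and 5422118. Chemotherapy library 14, with a total of 9419826, lay above library 16, with 4907852, in mean log2 level of the 4 (0.511 and 0.286), against that order. Healthy libraries 1, 3 and 4, which were lowest in their mean log2 level, also had the highest summed CPM of the fast-fiber, red blood cell and macrophage markers of the healthy group. The macrophage sum was 259.9, 338 and 367 CPM in those 3 libraries, and 168 and 235 CPM in healthy libraries 2 and 5. The fast-fiber sum was 190000 to 242000 CPM in chemotherapy samples, 185200 to 259700 in tumor samples and 229100 to 344000 in healthy samples. Acta1, Ckm and Myoz1 were called lower in chemotherapy against healthy samples, and 7 of the 10 were not called. Among those 7, Tnnc2 and Tnnt3 went the other way, with log2 fold changes of 0.58 and 0.24, and Myh4 had -0.00415. The red blood cell sum was 124 to 917 CPM in chemotherapy samples, 227 to 588 in tumor samples and 440.4 to 1379 in healthy samples, with none of 5 genes called. The part of these totals and markers in the differences was not tested. In whole muscle fewer cells of a type and less RNA per cell cannot be told apart.

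Slow-fiber markers summed to 6752 to 11390 CPM in chemotherapy samples, 8387 to 16480 in tumor samples and 5868 to 13680 in healthy samples, with none of 11 called. Adipocyte markers summed to 57.8 to 454 CPM in chemotherapy samples, 41.4 to 218 in tumor samples and 44.5 to 91.7 in healthy samples, and macrophage markers to 161 to 308 CPM, 139.7 to 271 CPM and 168 to 367 CPM in the same order. No gene of either list was called, and liver markers summed to at most 2.17 CPM.

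All 7 calls ended when the suffix entered the fit, when the VM libraries alone were used, without healthy libraries 1, 3 and 4, or with 1 surrogate variable, a hidden factor estimated from all genes. In each of these fits 0 genes of the whole table were called in chemotherapy against healthy samples, so the loss was not particular to the list. At an unadjusted p below 0.05, between 585 and 1050 genes passed in these fits, 1 to 3 of them from the list. The direction of each of the 7 stayed the same in these fits. Among VM libraries alone, which leave 1 healthy sample that is assumed to vary like the other groups, the log2 fold changes in chemotherapy against healthy samples were 0.70 for Pdha1, 0.62 for Idh3b, 0.38 for Suclg2, 0.88 for Sucla2, -0.39 for Pdk2, -0.65 for Aco1 and -0.30 for Mdh2. With the suffix as a term they were 0.58, 0.47, 0.34, 0.60, -0.39, -0.52 and -0.29 for the same genes, and the adjusted p lay between 0.588 and 0.628. That term rests on healthy library 5 and chemotherapy library 11, the only sample of each group with its suffix. Among MB libraries alone, a fit chosen after seeing the data, chemotherapy library 11 was set against 4 healthy samples and is assumed to vary like them. The log2 fold changes there were 0.45 for Pdha1, 0.31 for Idh3b, 0.29 for Suclg2, 0.30 for Sucla2, -0.40 for Pdk2, -0.38 for Aco1 and -0.27 for Mdh2, and 0 genes of the whole table were called, with 188 at an unadjusted p below 0.05. A lost call in an arm of 1 sample does not show a smaller difference. Healthy libraries 1, 3 and 4 were singled out with their values known and leaving them out keeps 2 healthy samples, so smaller values follow in part from that choice. Without them the values were 0.36 for Pdha1, 0.40 for Idh3b, 0.29 for Suclg2, 0.40 for Sucla2, -0.16 for Pdk2, -0.45 for Aco1 and -0.31 for Mdh2. With 1 surrogate variable they were 0.11 for Pdha1, 0.10 for Idh3b, 0.12 for Suclg2, 0.04 for Sucla2, -0.01 for Pdk2, -0.23 for Aco1 and -0.28 for Mdh2.

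The counts also rested on single libraries. No gene of the list was called without healthy library 1, 3 or 4, or without chemotherapy library 13, 14, 15 or 16, each left out on its own. In 6 of these 7 fits 0 genes of the whole table were called, with 3055 to 3759 at an unadjusted p below 0.05, and without chemotherapy library 16, 261 were called higher and 268 lower. Without healthy library 2, or without chemotherapy library 11, 8 were called higher and 3 lower, with Dld, Me1, Mpc2 and Pdhb added to the 4. Calls over all genes rose too, to 2024 higher and 1775 lower of 11995 without healthy library 2, and to 1505 and 1384 of 11828 without chemotherapy library 11. Without healthy library 5, 7 were called higher and 3 lower, beside 1236 and 1162 of all 11988 genes. Without chemotherapy library 17, 2 were called higher and 2 lower, beside 577 and 463 of all 11796 genes. DESeq2's Wald test on all 16 samples called 8 higher and 3 lower, beside 1454 and 1123 of all 11856 genes.

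Within a library, the ratio of the counts of a pair of partner genes does not depend on how libraries are scaled. Differences in mean log2 ratio were tested for 6 pairs in 3 comparisons by a two-sided exact permutation test, and none of the 18 had an adjusted p below 0.05. With 6 samples against 5 this test cannot go below 0.00216, and with 5 against 5 not below 0.00794. Both floors hold before adjustment over the 18 tests. With 5 against 5, a single pair could not pass after adjustment even if fully separated, so the lack of calls does not show equal ratios. Gene lengths differ, so a ratio is not a ratio of molecules.

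Mpc1/Mpc2 averaged 1.11 ± 0.17 on the log2 scale in chemotherapy samples (SD, n = 6) and 1.73 ± 0.39 in healthy samples (n = 5). The difference was -0.63, with an exact p of 0.00649 and an adjusted p of 0.117, and 6 of 6 chemotherapy samples lay below the healthy median. Pdk1/Pdk2 averaged -2.65 ± 0.34 in chemotherapy samples, -2.61 ± 0.64 in tumor samples and -3.45 ± 0.70 in healthy samples. The difference from healthy samples was 0.81 for chemotherapy samples (exact p 0.0455, adjusted 0.273, 6 of 6 above the healthy median) and 0.85 for tumor samples (exact p 0.0794, adjusted 0.286, 5 of 5 above). Healthy libraries 1, 3 and 4 had log2 ratios of -3.75, -4.04 and -4.08, below all other samples, and healthy libraries 2 and 5 had -2.62 and -2.78. Without those 3 libraries, whose low ratios make a smaller difference unavoidable, the differences were 0.06 for chemotherapy and 0.10 for tumor samples.

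Suclg2/Sucla2, the balance of GDP-forming to ADP-forming beta subunits, averaged -2.37 ± 0.32 in chemotherapy samples and -1.79 ± 0.53 in healthy samples. The difference of -0.58 had an exact p of 0.0584 and an adjusted p of 0.273, with 6 of 6 chemotherapy samples below the healthy median. Healthy libraries 1, 3 and 4 had log2 ratios of -1.74, -1.56 and -1.13, and healthy libraries 2 and 5 had -2.57 and -1.97. Without libraries 1, 3 and 4, whose high ratios make a smaller difference unavoidable, the difference was -0.10. For the cytosolic and mitochondrial partners, the differences in chemotherapy against healthy samples were 0.10 for Idh1/Idh2, 0.26 for Mdh1/Mdh2 and -0.10 for Got1/Got2, with exact p of 0.639, 0.121 and 0.314 and adjusted p of 0.718, 0.364 and 0.514.

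**Figure D4:**
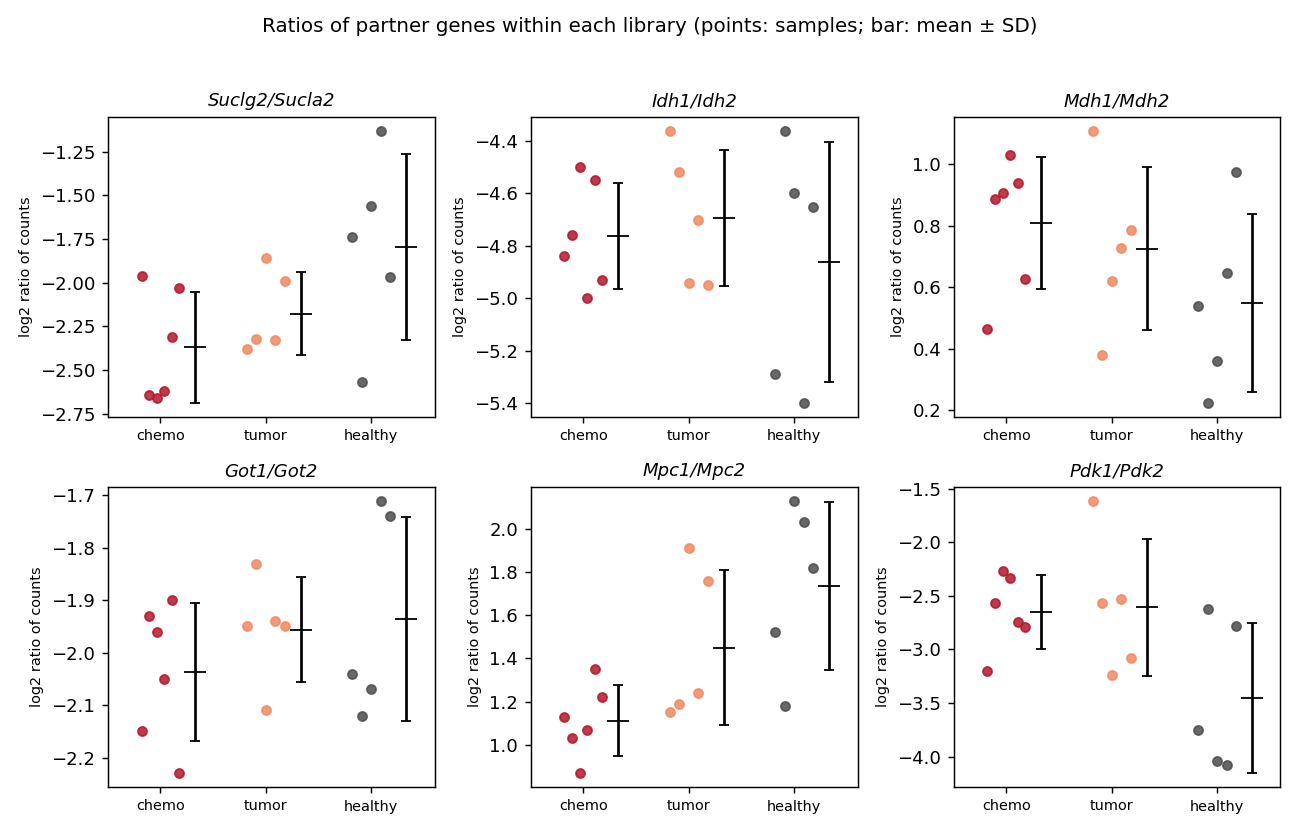
Log2 ratio of the counts of 6 pairs of partner genes in each sample, 1 panel a pair, with chemotherapy samples left, tumor samples in the middle and healthy samples right, and a bar at the mean with its SD. Mpc1/Mpc2 lay between 0.87 and 1.35 in chemotherapy samples and between 1.18 and 2.13 in healthy samples, and Pdk1/Pdk2 was lowest in healthy libraries 1, 3 and 4.

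Genes next to the pathway, such as the succinate dehydrogenase subunits, carriers of cycle intermediates and enzymes of lipoate and branched-chain keto acid metabolism, were counted from a separate list. Of 37 tested, 4 were called higher, 2 lower and 31 in neither direction in chemotherapy against healthy samples. Of all genes, 7.3% were called higher and 6.41% lower there. In the other comparisons 0 of the 37 and 0% of all genes were called. Sdhd, a membrane anchor of succinate dehydrogenase, averaged 397 CPM in chemotherapy samples and 230.3 CPM in healthy samples, a log2 fold change of 0.79 ± 0.20 (adjusted p 0.0290). Acss1, the mitochondrial acetyl-CoA synthetase, had 0.51 ± 0.14 (adjusted p 0.0315). Bckdk, the kinase that switches off branched-chain keto acid dehydrogenase, had -0.48 ± 0.14 (adjusted p 0.0353). Slc25a13, an aspartate-glutamate carrier, was low throughout, at 1.15 CPM in chemotherapy and 3.19 CPM in healthy samples, with -1.42 ± 0.39 (adjusted p 0.0315).

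Promoters, the 250 bases before to 50 after each gene's start, were taken from RefSeq (GRCr8) for the 32 of the 36 listed genes that matched. They were searched on both strands for TCAAGGTCA, an extended half-site of estrogen-related receptors, and GCGCATGCG, part of the site of NRF1, since both kinds of factor are known to act on mitochondrial genes. TCAAGGTCA stood in 0 of the 32 and in 0.433% of all 33469 promoters, and GCGCATGCG in 0 of the 32 and in 1.52% of all. No match says only that these letters are not in these windows. CCGGAAG, a core bound by ETS-family factors, was added after the promoters had been seen. It stood in 6 of the 32 (18.8%), namely Dlst, Glud1, Idh3b, Idh3g, Mdh2 and Mpc2, and in 8.75% of all promoters. The promoters of Idh3b, called higher, and Mdh2, called lower, are shown because they hold the same letters while their genes moved in opposite directions. Idh3b lies at chr3:137939941-137940240 on the minus strand, with the match on the other strand in capitals, and Mdh2 at chr12:26543792-26544091 on the minus strand, with the match in capitals, both 5′ to 3′.
Idh3b: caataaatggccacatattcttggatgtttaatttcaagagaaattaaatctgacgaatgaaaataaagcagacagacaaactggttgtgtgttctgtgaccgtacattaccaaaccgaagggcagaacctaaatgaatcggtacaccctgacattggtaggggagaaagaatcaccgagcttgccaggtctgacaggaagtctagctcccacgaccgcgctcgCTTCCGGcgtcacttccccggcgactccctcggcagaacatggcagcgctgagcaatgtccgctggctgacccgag
Mdh2: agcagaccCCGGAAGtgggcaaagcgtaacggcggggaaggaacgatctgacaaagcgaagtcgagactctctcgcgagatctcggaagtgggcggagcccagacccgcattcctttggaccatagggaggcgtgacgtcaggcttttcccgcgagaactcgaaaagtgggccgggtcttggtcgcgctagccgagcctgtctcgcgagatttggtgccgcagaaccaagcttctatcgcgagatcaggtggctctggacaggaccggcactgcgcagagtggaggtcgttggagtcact
The match starts at base 225 of the Idh3b window and at base 9 of the Mdh2 window, and G and C made up 50.3% and 60.7% of these windows.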

How the data were processed

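RNA from rat gastrocnemius was extracted with a magnetic-bead kit and made into stranded, rRNA-depleted libraries, per the labels. The authors deposited unnormalised gene counts of 17 libraries. Per the submitters' processing notes, the tools were TopHat2 2.0.10 and Bowtie2, Trim Galore 0.4.1, FastQC 0.11.4 and CASAVA 1.9. No source used here names the genome build, the annotation or the counting program. Of 32883 entries, 388 carried no gene name (0.102% to 0.373% of the counts) and were left out. Libraries 11 and 12, whose names differ only by a final d, had a chi-square per degree of freedom of 2.04, against 5.47 or more for other pairs of their group. They were therefore summed and counted as 1 sample.

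The test was the quasi-likelihood test of edgeR 4.0.16 under R 4.3.3 (TMM scaling, filterByExpr with a minimum count of 10, robust fit) in 1 model of 3 group means with 13 residual degrees of freedom, tested on simulated data. Each gene was simulated on its own, without differences shared across a library except its total, so the simulation says nothing about such differences. The SE is the size of the log2 fold change over the square root of F. Log2 ratios used a prior count of 0.5. The members and lists were chosen with earlier results of these data known. Full statistics went to called genes, or to the 6 with the smallest p where fewer than 6 were called. Alternatives were DESeq2 1.42.0, other scalings, no filter, 17 libraries, a suffix term, 1 surrogate variable (sva 3.50.0), VM or MB libraries only, and leaving out samples. Some genes of the neighbouring list are not reported here.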

Additional observations from a re-analysis of the deposited data

Results flagged for a closer look

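Of 123 groups of samples examined, 1 for each gene of the list or of a ratio and each group, 6 held a sample far from the others, and chance alone gives about 1 in 20. The gap to the nearest sample over the range of the group was 0.893 for Pdk1 in tumor samples, where library 6 had 48.2 CPM and the next 33.7 CPM. It was 0.829 for Me2 in tumor samples, again library 6, at 12.6 CPM against 8.99 CPM. It was 0.861 for Pdp1 in healthy samples, where library 5 had 97.7 CPM and the next 67.3 CPM. In chemotherapy samples library 11 was lowest for Pdpr, at 77.8 CPM against 91.0 CPM (0.673), and highest for Pc, at 87.7 CPM against 68.8 CPM (0.650). Library 13 was highest for Got1, at 236 CPM against 205 CPM (0.655). None of these 6 genes was called in any comparison.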

How the results depend on the processing

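No paired analysis was possible because the groups share no replicate numbers. In chemotherapy against healthy samples, where 4 genes were called higher and 3 lower, total counts alone gave 8 and 1 (1669 and 348 of all 11856 genes), no filter gave 1 higher and 2 lower (474 and 410 of all 19201 genes), and DESeq2's Wald test gave 8 higher (1454 and 1123 of all genes called higher and lower). The suffix term, the surrogate variable, VM libraries only, MB libraries only (chosen after seeing the data) and the run without healthy libraries 1, 3 and 4 each gave 0 higher and 0 lower, and 0 of all genes. VM libraries hold 1 healthy sample and MB libraries 1 chemotherapy sample, so those lost calls do not show smaller differences. Keeping the 17 libraries apart gave 3 higher and 3 lower (627 and 620 of all 11911 genes), with Sucla2 no longer called. Leaving out each sample in turn gave 0 to 8 higher and 0 to 3 lower. Total counts alone moved the median of all genes to 0.12, against -0.02, and that of the list to 0.21, against 0.08. That scaling left Mdh2 and Pdk2 uncalled, at adjusted p of 0.0537 and 0.0646. The median of the list moved to -0.0913 with the surrogate variable. In the other 2 comparisons 0 genes of the list were called under every alternative that gave a value. The cause of these changes was not tested. Where a direction turned, no value passed the threshold. With total counts alone, Dlat, Pdp2, Pdpr, Cs, Idh2, Suclg1, Got2 and Pc turned from negative to positive in chemotherapy against healthy samples. So did Mpc1, Dlat, Pdk3, Suclg1, Got2 and Glud1 in tumor against healthy samples. Outside the scaling alternatives, directions were compared only for the genes with full statistics in a comparison. With VM libraries only, Pdk1 in tumor against healthy samples was -0.0371. Log2 ratios turned as follows, in chemotherapy against healthy samples first. Idh1/Idh2 was -0.26 without healthy libraries 1, 3 and 4, -0.10 with VM libraries only, and -0.0383 to 0.22 with 1 sample left out, and Mdh1/Mdh2 was -0.10 with VM libraries only. In tumor against healthy samples Suclg2/Sucla2 was 0.10 and Idh1/Idh2 -0.19 without healthy libraries 1, 3 and 4, Idh1/Idh2 was -0.0384 and Mdh1/Mdh2 -0.25 with VM libraries only, and Got1/Got2 was -0.0652 to 0.0366 with 1 sample left out. In chemotherapy against tumor samples Pdk1/Pdk2 was 0.0692 with VM libraries only and -0.20 to 0.21 with 1 sample left out, where Idh1/Idh2 ran from -0.14 to 0.0107 and Mdh1/Mdh2 from -0.00396 to 0.18.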
